A study of Rattus norvegicus with 6 samples.

Results

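Phospholipase C, its product IP3 and the proteins that move or read calcium were followed in mated and unmated rats. The tissue was the endosalpinx, which is the mucosa that lines the oviduct. The genes were taken by symbol: phospholipase C beta, gamma, delta, epsilon and zeta (Plcb, Plcg, Plcd, Plce, Plcz), IP3 and ryanodine receptors (Itpr, Ryr), protein kinase C (Prkc), calmodulin (Calm), symbols that start with Camk, TRPV channels (Trpv), calcium pumps (Atp2a, Atp2b), and Stim and Orai. This gave 60 genes of the 14506 measured on the array. Each was read from the probe set (the group of array probes assigned to a gene) with the highest mean signal. All values are log2 signals, so a difference of 1 is a doubling. Trpv4 is not analysed here.

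There were 6 adult Sprague-Dawley rats, labelled with weights of 240 to 280 g, or 241 to 280 g for unmated rat 2, and each rat had its own array. The 3 mated rats were put with a fertile male at 2200 h of pro-estrus, were found 30 min later to have spermatozoa in the smear or a plug, and were killed 3 h after mating; their labels record abundant semen in the uterus. The 3 unmated rats were kept without a male and were killed at 0130 h of estrus, the same clock time, with uterine edema noted. Company of the male and mating cannot be told apart in this design. The comparison asks what mating changes in the lining within hours. The lining holds several cell types, and fewer cells of a type and less RNA per cell cannot be told apart in such samples.

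As background, many hormones and transmitters act through receptors that switch on phospholipase C, which splits the membrane lipid PIP2 into IP3 and diacylglycerol. IP3 opens channels in the endoplasmic reticulum and lets calcium out, diacylglycerol with calcium activates protein kinase C, and calmodulin carries the calcium signal to kinases and phosphatases. STIM proteins sense the emptied store and open ORAI channels, and the SERCA and plasma membrane pumps bring calcium down again. In the oviduct, calcium signals of this kind are known to speed the beat of cilia and to drive contraction of the muscle layer.

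None of the 60 genes differed between mated and unmated rats beyond the error after adjustment (smallest adjusted p = 0.984 by limma with Benjamini-Hochberg adjustment over 14506 genes), and neither did any other gene on the array (0 of 14506, or 0%). At an unadjusted p under 0.05 there were 2 of the 60, or 3.33%, against 4.57% of all genes. They were Camk1d, a calmodulin-dependent kinase, higher in mated rats (1 of 60, against 3.02% of all genes in that direction), and Prkch, protein kinase C eta, lower in mated rats (1 of 60, against 1.55%). The share lies near that of the whole array and is not a result about these genes. The values of all 3 mated rats lay to 1 side of all 3 unmated rats for 6 of the 60 genes, or 10%, against 8.47% of all genes. These were Prkca, Prkcd, Camk2n1 and Orai2, higher in mated rats (5.24% of all genes), and Prkch and Camk2g, lower in mated rats (3.23% of all genes).

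The differences were small, and the intervals give the size that these arrays can still hold. The log2 fold change, mated minus unmated, ran from -0.39 for Ryr3 to 0.25 for Camk1d, with a median of 0.035, against a median of 0.010 over all genes. It was above 0 for 39 genes, below 0 for 20 and exactly 0 for Ryr1; over the array, 53.2% of genes were above 0. After each array was centred on its median the split was 35 above and 24 below. For 30 of the 60 genes the 95% confidence interval, which is not adjusted for the number of genes, stayed within 1.2-fold in either direction, against 43.8% of all genes. For 58 of the 60 it stayed within 1.5-fold, against 95.7% of all genes. The exceptions were Ryr3 and Prkcb, the members that varied most between rats of 1 group.

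**Figure D1:**
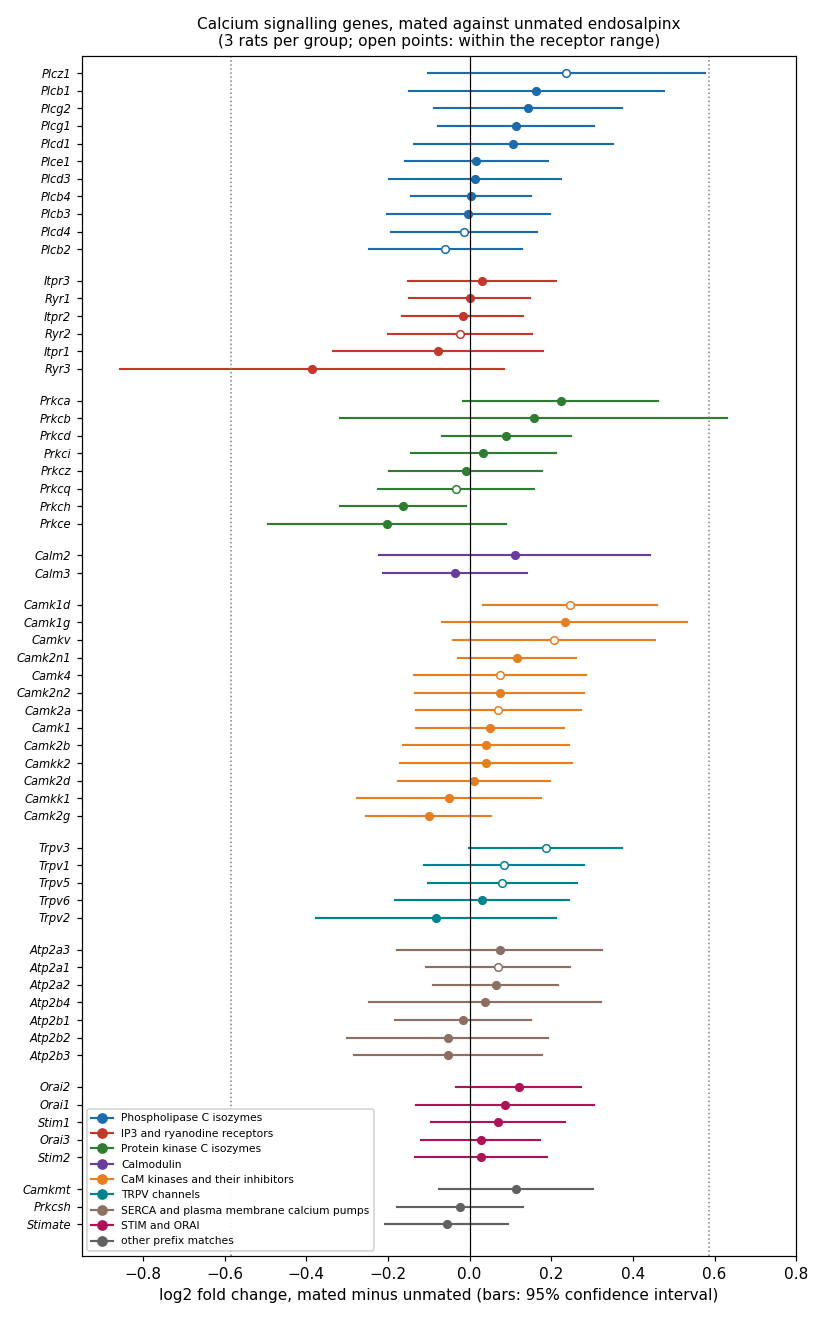
Log2 fold change of each of the 60 genes, mated minus unmated (x axis, log2 units), with bars for the unadjusted 95% confidence interval of the limma fit on 3 rats per group; dotted lines mark 1.5-fold and open points lie within the receptor range of 7.13 or less. The bars of Camk1d and Prkch alone leave out 0, and those of Ryr3 and Prkcb alone pass a dotted line.

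Background was judged from the odorant and pheromone receptors, genes used mainly by sensory neurons: 95% of these 1240 genes had a mean log2 signal of 7.13 or less. Above this receptor range lay 47 of the 60 genes, and 13 lay within it. The 13 were Plcb2, Plcd4, Plcz1, Ryr2, Prkcq, Camk1d, Camk2a, Camk4, Camkv, Trpv1, Trpv3, Trpv5 and Atp2a1. Several of them are known from other tissues, such as Plcz1 from sperm, Ryr2 from heart muscle and Atp2a1 from skeletal muscle. The values of these genes may be background and their differences are not well measured.

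The genes above and within the receptor range also differed in the letters of their promoters, and 1 promoter of each kind is shown for this reason. RefSeq promoters (GRCr8, 300 bases around the start of the gene) were matched for 49 of the 60 genes. The motif GGGCGG, the core of the GC box bound by Sp1, was searched on both strands. A gene was counted if any of its listed promoters held the motif. It stood in 28 of 38 genes above the range (73.7%) and in 3 of 11 of those within it (27.3%). Over all genes tested with a promoter, it stood in 62.5% of 8581 above the range and in 21.1% of 3369 within it, so the same split holds across the array. Counted promoter by promoter, which is a different measure from the shares of genes, it stood in 33.1% of all 33469 RefSeq promoters listed. Plcb3, the phospholipase C beta that G proteins activate in many epithelia, lay above the range and its promoter holds the letters 7 times. Trpv5, a calcium channel of the kidney, lay within the range and its promoter holds them 0 times. The count of Plcb3 was the highest of the 49 matched genes, shared with Camk2g, so this pair shows the widest contrast. Itpr1 and Trpv2, above the range, had 0 as well, and Camkv, within it, had 3. Capitals mark GGGCGG or, on the other strand, CCGCCC; Plcb3 is at chr1:213589386-213589685 and Trpv5 at chr4:71529333-71529632, both on the minus strand.
Plcb3: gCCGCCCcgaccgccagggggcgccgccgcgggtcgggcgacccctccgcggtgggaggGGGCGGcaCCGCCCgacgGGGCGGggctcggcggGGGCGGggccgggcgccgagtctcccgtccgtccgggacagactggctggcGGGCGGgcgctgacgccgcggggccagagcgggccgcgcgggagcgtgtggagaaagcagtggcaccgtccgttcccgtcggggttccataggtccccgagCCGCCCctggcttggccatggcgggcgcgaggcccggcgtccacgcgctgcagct
Trpv5: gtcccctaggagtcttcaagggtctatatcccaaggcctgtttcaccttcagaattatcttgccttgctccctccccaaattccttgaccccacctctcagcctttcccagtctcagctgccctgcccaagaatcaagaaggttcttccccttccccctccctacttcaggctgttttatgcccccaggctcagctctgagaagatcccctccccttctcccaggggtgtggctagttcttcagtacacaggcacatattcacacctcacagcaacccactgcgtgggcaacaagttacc

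Phospholipase C isozymes start the pathway. Of 11 measured, 8 were higher and 3 lower in mated rats. The median log2 fold change was 0.017, and 0 reached an unadjusted p under 0.05. After median centring 5 were higher and 5 lower. Plcb1 and Plcb3, which G proteins activate, overlapped between the groups. Plcb1 had log2 signals of 8.67, 8.87 and 8.73 in mated rats, against 8.91, 8.40 and 8.47 in unmated rats. Unmated rat 1 was the highest of all 6 rats and the other unmated rats the lowest. The difference was 0.16 with all rats, and 0.32 without unmated rat 1 (unadjusted p = 0.0101, adjusted p = 0.997 by limma). Where a named rat is left out, here and below, it was picked after the values were seen. The p without that rat is not a separate test. Plcb3 had 9.67, 9.46 and 9.62 in mated rats, against 9.60, 9.68 and 9.48 in unmated rats, a difference of -0.003 (95% confidence interval -0.20 to 0.20). Plcb4 was the steadiest isozyme, at 9.07, 9.07 and 9.03 in mated rats and 9.08, 9.07 and 9.01 in unmated rats. Its unadjusted 95% interval of -0.14 to 0.15 was the narrowest of the 11 isozymes.

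The gamma isozymes, which receptor and other tyrosine kinases activate, were both slightly higher on average. Plcg1 had 9.53, 9.79 and 9.67 in mated rats, against 9.55, 9.59 and 9.51 in unmated rats, a difference of 0.11 (-0.08 to 0.30). Mated rat 1 lay among the unmated rats; without it the difference was 0.18, at an unadjusted p of 0.0461 and an adjusted p of 0.515 by limma. Plcg2, the isozyme of blood cells, had 8.06, 7.79 and 8.14 in mated rats, against 7.92, 7.81 and 7.83 in unmated rats. Here mated rat 2 was the lowest of all 6 rats, and the difference was 0.14 with it and 0.25 without it (unadjusted p = 0.0194, adjusted p = 0.997). Plcd1, which calcium itself activates, averaged 7.98 ± 0.12 in mated and 7.87 ± 0.17 in unmated rats (SD, n = 3 per group). Plcz1, the sperm factor that activates the egg, had the smallest p of the class (unadjusted p = 0.146 by limma). Its signals of 5.50, 5.72 and 5.26 in mated rats and 5.50, 5.04 and 5.23 in unmated rats lay within the receptor range and overlapped. Its difference of 0.24 was 0.36 without unmated rat 1 (unadjusted p = 0.0384) and 0.35 without mated rat 3 (unadjusted p = 0.0458). Plce1, which Ras proteins activate, Plcd3, Plcd4 and Plcb2 differed by -0.06 to 0.02.

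The IP3 receptors, the release channels of the endoplasmic reticulum, were all above the receptor range and overlapped between the groups. Itpr1 had 10.66, 10.73 and 10.49 in mated rats, against 10.73, 10.88 and 10.50 in unmated rats. Itpr2 had 10.80, 10.79 and 10.75 in mated rats, against 10.84, 10.78 and 10.77 in unmated rats. Itpr3 had 9.40, 9.59 and 9.42 in mated rats, against 9.51, 9.41 and 9.40 in unmated rats. The differences were -0.08 (-0.33 to 0.18) for Itpr1, -0.02 (-0.16 to 0.13) for Itpr2 and 0.03 (-0.15 to 0.21) for Itpr3. For Itpr2, which varied least, the interval leaves room for a change of 1.10-fold upward at most, or to 0.892 of the unmated level.

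Ryanodine receptors are release channels best known from muscle and nerve. Ryr3 had the largest difference of the 60 genes, -0.39 (-0.86 to 0.08), with an unadjusted p of 0.0942 by limma. It had 8.35, 8.11 and 8.25 in mated rats, against 9.02, 8.73 and 8.12 in unmated rats. Unmated rats 1 and 2 stood above all mated rats, while unmated rat 3 lay beside the lowest mated rat, so the groups overlapped. Without unmated rat 3 the difference was -0.64, at an unadjusted p of 0.00112 and an adjusted p of 0.674, and without unmated rat 1 it was -0.19. Unmated rat 3 held the value that closed the gap, so a smaller p without that rat was built in. With array weights the difference was -0.48 (unadjusted p = 0.0366, adjusted p = 0.593). The lists of stromal and muscle markers also differed between the unmated rats. They were set beside Ryr3 after their values were seen, and lists of other kinds fell likewise. Relative to the unmated mean, G proteins and their regulators were at 0.17, -0.02 and -0.15 in unmated rats 1, 2 and 3. Diacylglycerol kinases and protein kinase D were at 0.145, -0.05 and -0.10. The epithelial list went the other way, at -0.02, -0.05 and 0.07. The mean of 9 fibroblast markers, relative to the unmated mean, was -0.23, -0.08 and -0.08 in mated rats 1, 2 and 3, and 0.10, 0.06 and -0.16 in unmated rats 1, 2 and 3. Of the 9, 8 were lower in mated rats and 1 lay within the receptor range, and Dpt, the matrix protein dermatopontin, had the smallest p, at 6.86, 7.17 and 6.94 in mated rats and 7.38, 7.58 and 7.38 in unmated rats. The low mean of unmated rat 3 came mainly from 2 matrix genes, picked out after their values were seen. Dcn was at 8.0, 7.79 and 7.08 in unmated rats 1, 2 and 3. Lum, the marker within the receptor range, was at 5.26, 5.59 and 4.59. Col1a1 was flat in these rats, at 9.32, 9.32 and 9.30, and Mfap5 was highest in unmated rat 3, at 7.57, 7.55 and 7.93. The mean of 9 smooth muscle markers was -0.14, -0.01 and 0.07 in mated rats 1, 2 and 3, and 0.03, 0.12 and -0.14 in unmated rats 1, 2 and 3, so it too was lowest in unmated rat 3 among the unmated rats. The part of either list in the result was not tested. Ryr1, the skeletal muscle type, averaged 7.28 in both groups (SD 0.04 in each, n = 3), and Ryr2 lay within the receptor range at 6.47 ± 0.11 in mated and 6.5 ± 0.03 in unmated rats.

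Protein kinase C isozymes, most of which diacylglycerol controls, differed in both directions: 4 of 8 were higher and 4 lower in mated rats. The median was 0.012, with no settled sign: it was -0.005 after median centring, -0.009 with array weights, -0.018 without mated rat 1 and -0.016 without mated rat 3. Prkch, the eta isozyme known from epithelia, had 7.78, 7.87 and 7.89 in mated rats, against 8.04, 8.01 and 7.98 in unmated rats. All mated rats lay below all unmated rats, by 0.16 on average (95% confidence interval -0.32 to -0.01; unadjusted p = 0.0406 and adjusted p = 0.984 by limma). Without any single rat the unadjusted p lay between 0.052 and 0.115. Prkca, the classical alpha isozyme that needs calcium, had 9.02, 9.01 and 9.15 in mated rats, against 8.96, 8.62 and 8.93 in unmated rats. The groups did not overlap, but unmated rat 2 supplied much of the gap: the difference was 0.22 (-0.02 to 0.46; unadjusted p = 0.0629) and 0.115 without that rat (unadjusted p = 0.22). The unadjusted p was 0.0481 with the replicate number as a block, 0.0457 with array weights and 0.0392 without unmated rat 1, where the difference was 0.285, and the adjusted p was at least 0.544 under every alternative. Prkcd, the delta isozyme, which needs diacylglycerol but no calcium, had 9.67, 9.65 and 9.67 in mated rats, against 9.61, 9.49 and 9.62 in unmated rats. These groups did not overlap either, with a difference of 0.09 (-0.07 to 0.25; unadjusted p = 0.224).

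Prkce, the epsilon isozyme, had 9.32, 9.06 and 9.03 in mated rats, against 9.59, 9.24 and 9.19 in unmated rats, a difference of -0.20 (-0.49 to 0.09). Mated rat 1 lay above 2 of the unmated rats. The unadjusted p was 0.146 by limma, 0.0343 with the replicate block and 0.0484 with array weights. The atypical isozymes, which act in cell polarity and need neither calcium nor diacylglycerol, differed less. Prkcz averaged 9.92 ± 0.11 in mated and 9.93 ± 0.07 in unmated rats, and Prkci 11.07 ± 0.07 in mated and 11.03 ± 0.09 in unmated rats (SD, n = 3 per group). Prkcq, the isozyme of T cells, lay within the receptor range and differed by -0.03. Prkcb, the isozyme of B cells, had 7.06, 7.17 and 7.91 in mated rats, against 7.08, 7.32 and 7.27 in unmated rats. A single rat, mated rat 3, was high. The mean of 8 lymphocyte markers relative to the unmated mean was -0.11, -0.04 and -0.07 in mated rats 1, 2 and 3, and 5 of the 8 lay within the receptor range. Most of these markers are of T cells. Of the B cell genes, Ms4a1 lay within the receptor range. Cd79b had 7.45, 7.63 and 7.59 in mated rats, against 7.43, 7.51 and 7.57 in unmated rats. The list therefore says little about B cells. All 6 erythroid markers were higher in mated rats on average and 2 lay within the receptor range. Their mean was -0.06, 0.14 and 0.36 in mated rats 1, 2 and 3, and 0.09, -0.01 and -0.07 in unmated rats 1, 2 and 3. This list was picked after the values were seen. The neuron and glia list and the epithelial list were also highest among mated rats in mated rat 3, at 0.18 and 0.13. Of the 8 neuron and glia markers, 6 lay within the receptor range. The smooth muscle, skeletal muscle and endothelium lists were highest in that rat too, at 0.07, 0.10 and 0.045. The ciliated list was lowest there, at -0.16. The part of any list in the value of Prkcb was not tested.

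**Figure D2:**
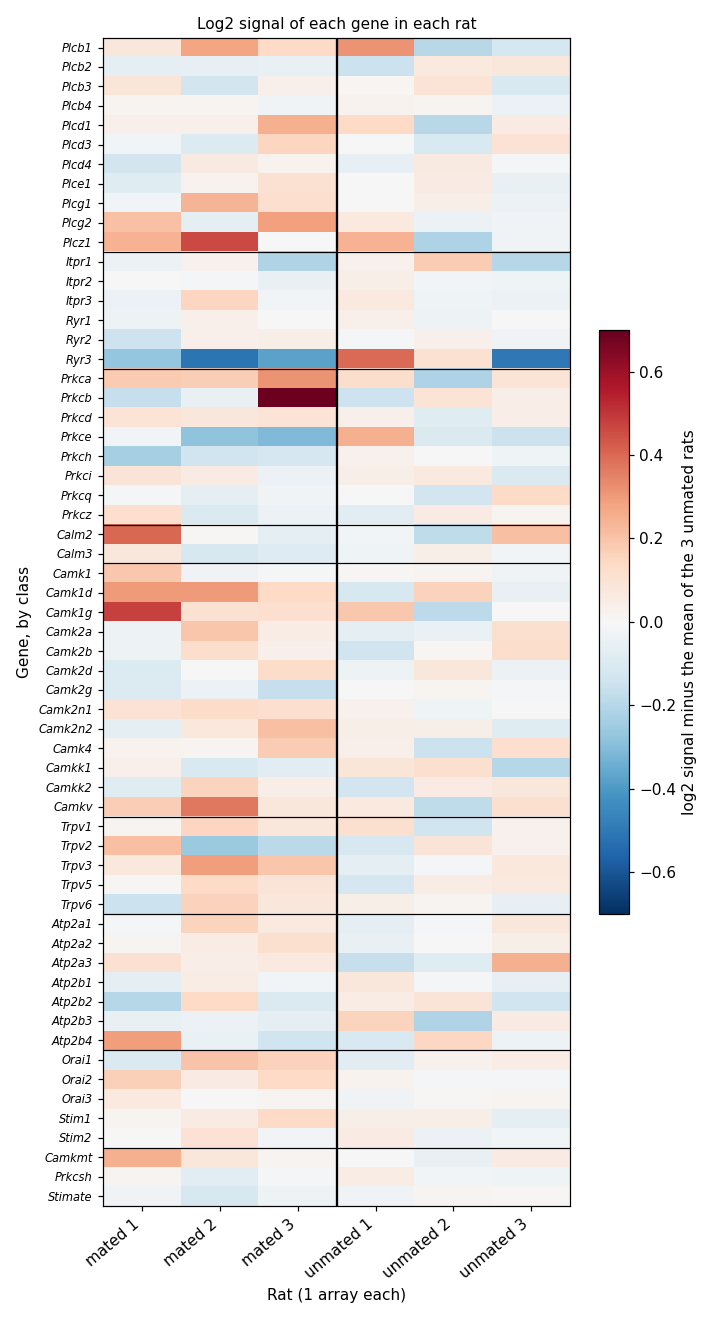
Log2 signal of each of the 60 genes (rows, by class, separated by lines) in each rat (columns, mated left and unmated right), as the difference from the mean of the 3 unmated rats. Most cells are pale, Ryr3 is low in all mated rats and in unmated rat 3, Prkcb is high in mated rat 3, and Calm2 and Camk1g are high in mated rat 1.

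Calmodulin is the calcium sensor of the cytosol, and the calmodulin genes are known to encode the same protein. Calm2 was read by 2 probe sets, which ranked the rats alike at the top and bottom. The probe set of highest mean had 12.51, 12.12 and 12.04 in mated rats, against 12.09, 11.93 and 12.32 in unmated rats. The other had 11.46, 11.03 and 11.02 in mated rats, against 10.90, 10.83 and 11.30 in unmated rats. Mated rat 1 and unmated rat 3 were the highest on both, and unmated rat 2 the lowest. The rats of 1 group thus differed in Calm2 by more than the groups did, with differences between groups of 0.11 (-0.22 to 0.44) on the first probe set and 0.16 on the other. Calm3 had 12.76, 12.57 and 12.59 in mated rats, against 12.65, 12.72 and 12.66 in unmated rats, and mated rat 1 was again the highest.

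The calmodulin-dependent kinases and their inhibitors were higher in mated rats for 11 of 13 genes and lower for 2. Their median log2 fold change was 0.070, against 0.010 over all genes. After median centring 10 were higher and 3 lower. The median was 0.010 among the 3 genes left when the dimmer 50% of the array was removed, and 4 of the 13 lay within the receptor range. Camk1d, a CaM kinase I, had the smallest p of the 60 genes and also lay within the receptor range. On the probe set of highest mean it had 7.02, 7.02 and 6.86 in mated rats, against 6.61, 6.88 and 6.67 in unmated rats, a difference of 0.25 (0.03 to 0.46; unadjusted p = 0.0285 and adjusted p = 0.984 by limma). Mated rat 3 lay below unmated rat 2, so the groups overlapped, and without mated rat 1, mated rat 2, unmated rat 1 or unmated rat 3 the unadjusted p lay between 0.073 and 0.102. Its other probe set had 6.76, 6.85 and 6.54 in mated rats, against 6.83, 6.79 and 6.81 in unmated rats, a difference of -0.09, in the opposite direction. With the mean of both probe sets the difference was 0.08 and the unadjusted p was 0.386.

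**Figure D3:**
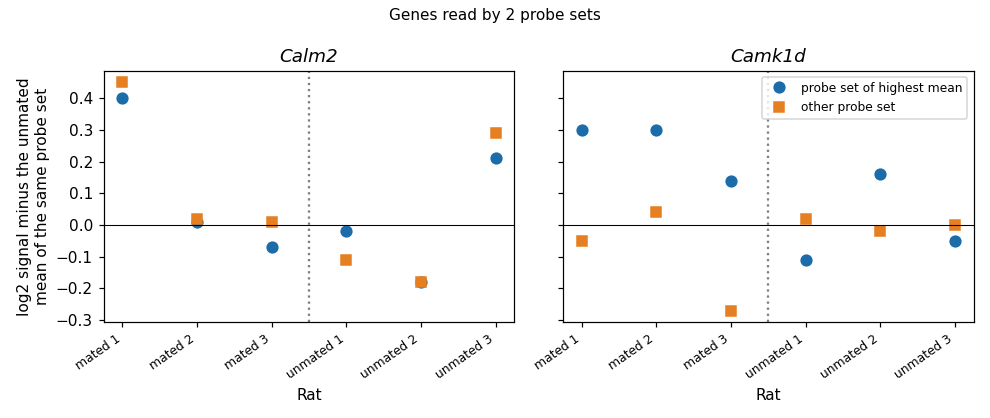
Log2 signal of Calm2 (left) and Camk1d (right) in each rat on both probe sets of the gene, each as the difference from the unmated mean of the same probe set. For Calm2 both probe sets put mated rat 1 and unmated rat 3 on top, while for Camk1d the mated mean lies 0.25 above the unmated mean on 1 probe set and 0.09 below it on the other.

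CaM kinase II, the kinase that can stay active after a calcium signal, has 4 genes, of which Camk2d and Camk2g are the forms found in most tissues. Camk2d had 9.03, 9.12 and 9.25 in mated rats, against 9.09, 9.20 and 9.08 in unmated rats. Camk2g had 8.67, 8.72 and 8.60 in mated rats, against 8.76, 8.78 and 8.75 in unmated rats. All mated rats were lower for Camk2g, by 0.10 on average (-0.25 to 0.05; unadjusted p = 0.17 by limma), and the groups overlapped for Camk2d. Camk2n1, an inhibitor of CaM kinase II, had 9.24, 9.27 and 9.26 in mated rats, against 9.17, 9.11 and 9.14 in unmated rats. It varied least of all 60 genes between rats of 1 group, and its groups stood apart by 0.12 (-0.03 to 0.26; unadjusted p = 0.1). The brain forms Camk2a and Camk2b differed by 0.07 and 0.04, with overlap.

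The upstream kinases Camkk1 and Camkk2, which switch on CaM kinases I and IV, differed by -0.05 (-0.28 to 0.18) and 0.04 (-0.17 to 0.25). Camkk2, which also activates AMP-activated kinase, had 7.34, 7.58 and 7.47 in mated rats, against 7.29, 7.48 and 7.5 in unmated rats. Camk1g had 7.91, 7.54 and 7.55 in mated rats, against 7.62, 7.25 and 7.43 in unmated rats, and mated rat 1 stood above the rest. Its difference of 0.23 (-0.07 to 0.53) had an unadjusted p of 0.11 by limma. That p was 0.0254 with the replicate block and 0.0439 without unmated rat 1. Camk1 differed by 0.05, and Camk4, Camkv and the inhibitor Camk2n2 by 0.07 to 0.21.

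TRPV channels let calcium and other cations in from outside, and 3 of the 5 measured lay within the receptor range. Trpv2 and Trpv6 lay above it. Trpv6, an epithelial calcium uptake channel known to respond to estrogen in the rodent uterus, had 9.08, 9.39 and 9.31 in mated rats, against 9.27, 9.25 and 9.17 in unmated rats, a difference of 0.03 (-0.18 to 0.24). Mated rat 1 was the lowest rat and the other mated rats the highest. Trpv2, a cation channel also found in macrophages, had 12.56, 12.09 and 12.16 in mated rats, against 12.24, 12.44 and 12.38 in unmated rats. Mated rat 1 was the highest of all and the other mated rats the lowest; without mated rat 1 the difference was -0.23 (unadjusted p = 0.0311, adjusted p = 0.506), against -0.08 with it. Trpv3, a channel of keratinocytes, had the smallest p of the class, at 6.63, 6.85 and 6.75 in mated rats and 6.49, 6.55 and 6.63 in unmated rats (difference 0.19, unadjusted p = 0.0508 by limma). Mated rat 1 equalled unmated rat 3, so the groups met. The unadjusted p was 0.0172 without mated rat 1, 0.0455 without unmated rat 3 and 0.0152 with array weights.

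The mean of the ciliated cell markers moved with Trpv2 from rat to rat, but not every marker did. The mean of 8 markers, relative to the unmated mean, was 0.08, -0.10 and -0.16 in mated rats 1, 2 and 3, and -0.10, 0.09 and 0.00 in unmated rats 1, 2 and 3. Trpv2 was likewise high in mated rat 1 and low in mated rats 2 and 3, and unmated rat 2 was the highest unmated rat on both. Of the 8 markers 7 were lower in mated rats and 1 lay within the receptor range. Foxj1 had 10.91, 10.68 and 10.92 in mated rats 1, 2 and 3, so it was high in mated rat 3 as well. Spag6, within the receptor range, had 6.25, 6.38 and 6.29 and was lowest in mated rat 1. The mean of 10 macrophage markers was -0.06 to -0.07 in all mated rats, and 0.12, -0.12 and 0 in unmated rats 1, 2 and 3. Trpv2 and these lists were set side by side after their values were seen, and the part of ciliated cells or of macrophages was not tested.

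**Figure D4:**
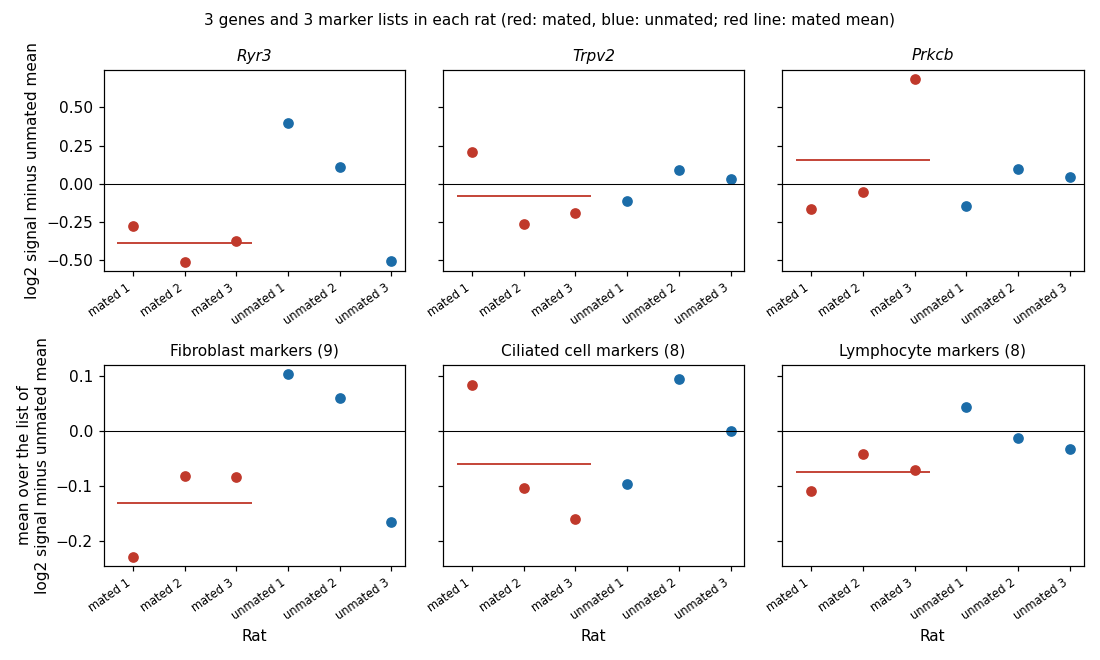
Log2 signal of Ryr3, Trpv2 and Prkcb (top) and the mean of 9 fibroblast, 8 ciliated cell and 8 lymphocyte markers (bottom) in each rat, relative to the unmated mean; red points are mated and blue points unmated rats, and the red line is the mated mean. The rows have different scales. Ryr3 and the fibroblast mean are both highest in unmated rat 1, but the fibroblast mean is lowest in mated rat 1, where Ryr3 is highest among mated rats. Trpv2 and the mean of the ciliated markers are high in mated rat 1 and low in mated rats 2 and 3. Prkcb is high in mated rat 3 alone. The lymphocyte markers, most of them of T cells, are on average below the unmated mean in all mated rats.

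The calcium pumps differed by -0.05 to 0.07 over 7 genes, with 4 higher and 3 lower in mated rats. Atp2a2, the SERCA pump of most cells, which refills the endoplasmic reticulum, had 12.32, 12.35 and 12.41 in mated rats, against 12.25, 12.30 and 12.34 in unmated rats. The groups overlapped, and the difference of 0.06 had an interval of -0.09 to 0.22. Atp2a3, the SERCA pump of epithelia and blood cells, had 8.70, 8.64 and 8.66 in mated rats, against 8.43, 8.51 and 8.84 in unmated rats. Unmated rat 3 lay above all mated rats and the other unmated rats below them. The difference was 0.07 with all rats and 0.20 without unmated rat 3 (unadjusted p = 0.0366, adjusted p = 0.821). Of the plasma membrane pumps, Atp2b1, found in most cells, had 11.97, 12.09 and 12.02 in mated rats, against 12.12, 12.03 and 11.98 in unmated rats. Its difference was -0.02 (-0.18 to 0.15). Atp2b2, known from hair cells and the mammary gland, had 11.28, 11.62 and 11.38 in mated rats, against 11.53, 11.57 and 11.34 in unmated rats, well above the receptor range in every rat. Atp2b4, the pump known from the sperm tail and from oviductal fluid in mice, had 9.34, 9.0 and 8.91 in mated rats, against 8.94, 9.19 and 9.01 in unmated rats. Mated rat 1 was the highest and mated rat 3 the lowest of all rats. Atp2b3 averaged 7.35 ± 0.01 in mated and 7.40 ± 0.19 in unmated rats (SD, n = 3 per group).

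STIM and ORAI form the store-operated entry path. All 5 genes lay above the receptor range and all 5 were higher on average in mated rats under each of the 3 scalings. On the deposited scale the differences were 0.03 to 0.12 with a median of 0.070, and after median centring they were 0.01 to 0.10 with a median of 0.053; none reached an unadjusted p under 0.05. Stim1, the main sensor of the store, had 10.78, 10.82 and 10.90 in mated rats, against 10.80, 10.80 and 10.69 in unmated rats. Stim2, the sensor of the resting store, had 10.65, 10.75 and 10.63 in mated rats, against 10.71, 10.61 and 10.63 in unmated rats. Both genes overlapped between the groups. Orai1, the channel that STIM1 opens, had 9.46, 9.76 and 9.72 in mated rats, against 9.48, 9.59 and 9.61 in unmated rats. Mated rats 2 and 3 were the highest and mated rat 1 the lowest; without mated rat 1 the difference was 0.18 (unadjusted p = 0.0465, adjusted p = 0.515), against 0.09 with it. Orai2 had 8.0, 7.89 and 7.97 in mated rats, against 7.86, 7.82 and 7.82 in unmated rats, and its groups did not overlap (difference 0.12, -0.03 to 0.27; unadjusted p = 0.108 by limma). Orai3 averaged 9.49 ± 0.04 in mated and 9.46 ± 0.02 in unmated rats (SD, n = 3 per group).

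The prefixes also took in 3 genes of other function, with differences of -0.06 to 0.11. Prkcsh encodes a subunit of glucosidase II in the endoplasmic reticulum and averaged 11.37 ± 0.05 in mated and 11.39 ± 0.04 in unmated rats. Camkmt encodes the methyltransferase of calmodulin and averaged 9.51 ± 0.12 in mated and 9.39 ± 0.06 in unmated rats. Stimate encodes a membrane protein that promotes the action of STIM1 and averaged 8.47 ± 0.05 in mated and 8.52 ± 0.02 in unmated rats (SD, n = 3 per group for each).

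The wider pathway gave the same picture. Over 11 lists of other genes of the pathway, 119 of 140 were measured, 71 were higher and 43 lower in mated rats, and the median was 0.013. By limma 0 of the 119 had an adjusted p under 0.05, and 5 had an unadjusted p under 0.05 (4.2%, against 4.57% of all genes), 4 higher and 1 lower in mated rats. Upstream, Rgs2, which shuts off the G protein that drives phospholipase C beta, had 9.71, 9.53 and 9.54 in mated rats, against 9.55, 8.94 and 9.05 in unmated rats. Unmated rat 1 lay among the mated rats, and the difference was 0.41 (0.06 to 0.76; unadjusted p = 0.0264, adjusted p = 0.984). Rgs18, a regulator of platelets, was lower within the receptor range, at 5.72, 5.94 and 5.89 in mated rats, against 6.20, 5.91 and 6.15 in unmated rats. Of the 9 genes of that list 5 were higher and 3 lower.

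The other leading genes lay further along the pathway. S100a10, an annexin partner that carries TRPV5 and TRPV6 to the membrane, had 13.23, 13.00 and 13.10 in mated rats, against 12.83, 12.80 and 12.99 in unmated rats. All mated rats were higher, by 0.24 (0.03 to 0.44; unadjusted p = 0.0274, adjusted p = 0.984). Of the 10 cytosolic calcium-binding proteins 9 were higher and 1 lower, with a median of 0.10, the highest median of the 11 lists. Jph2, which ties the endoplasmic reticulum to the cell membrane, had 7.70, 7.91 and 7.84 in mated rats, against 7.55, 7.65 and 7.68 in unmated rats, in a list of 19 regulators of which 11 were higher and 8 lower. Trpa1, an irritant-sensing channel, was higher by 0.28 within the receptor range, in a list of 18 plasma membrane channels and exchangers of which 10 were higher and 7 lower.

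In the remaining lists no gene reached an unadjusted p under 0.05, and each is given with the log2 fold change of its gene of smallest p. Synthesis of phosphatidylinositol and PIP2 had 6 of 13 higher and 5 lower, and the kinase Pi4k2b, of smallest p, had a log2 fold change of 0.16. Enzymes that remake or break down IP3 had 7 of 10 higher and 2 lower, led by the IP3 kinase Itpkc at 0.14. Diacylglycerol kinases and protein kinase D had 4 of 8 higher and 4 lower, led by Prkd1 at 0.30, and the PLC-like genes Plcl1 and Plcl2 were both slightly lower, with Plcl2 at -0.04. Calcineurin and NFAT, the phosphatase and the transcription factors it releases, had 7 of 12 higher and 5 lower, led by Ppp3r2 at 0.23 within the receptor range. Calcium-binding proteins of the endoplasmic reticulum had 10 of 12 higher and 2 lower, led by the chaperone Pdia4 at 0.13. Mitochondrial uptake had 2 of 6 higher and 4 lower, led by Micu3, a regulator of the uniporter, at -0.16.

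The samples carried the transcripts of the tissue named on their labels. Epcam, the epithelial adhesion molecule, averaged 12.58 ± 0.09 in mated and 12.49 ± 0.18 in unmated rats, and Foxj1, the regulator of motile cilia, 10.84 ± 0.14 in mated and 10.84 ± 0.11 in unmated rats (SD, n = 3 per group). All 11 measured epithelial and secretory markers lay above the receptor range. Of the muscle markers, 8 of 9 for smooth muscle lay above it and 3 of 10 for skeletal muscle. The median signal of the 6 arrays lay between 7.89 and 7.94. Mated rat 1 had the lowest array weight, 0.446, against 0.827 to 1.37 for the other arrays. It lay outside the range of the other mated rats for 46 of the 60 genes, and for 10894 of all 14506 genes. Its place as the highest or lowest mated rat is thus not particular to the genes named above.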

How the data were processed

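Per the labels, 0.3 µg of total RNA of each rat was turned into biotin-labelled sense target and hybridised to 1 Affymetrix array. The deposited values are log2 signals; the submitters' processing notes name RMA and Affymetrix Expression Console, without versions, and no genome build is named in the sources used. RMA equalises the arrays, so a shift of most genes would not show, and it compresses changes of dim genes. Of 29214 probe sets 15310 had exactly 1 gene symbol; the one of highest mean was kept per gene, which left 14506 genes. Groups and replicate numbers come from the titles, and the labels name no batch.

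All 6 arrays were fitted with limma 3.58.1 (R 4.3.3; lmFit, eBayes, no block, two-sided), with Benjamini-Hochberg adjustment over all genes and a threshold of 0.05. Intervals are unadjusted 95% intervals of that fit. Arrays have no depth, and their number limits the precision. Alternatives were a replicate block, trend, robust fit, array weights, 2 scalings, 2 filters on dim genes, the mean of all probe sets and each rat left out. The members and lists were chosen with earlier results of these data known. Named genes were those of smallest p in each class and list, members at an unadjusted p under 0.05 and a set fixed by role; others are given with their class.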

Additional observations from a re-analysis of the deposited data

How the results depend on the processing

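No gene of the array and none of the 60 genes had an adjusted p under 0.05 under any of 15 alternatives; the lowest adjusted p of a member was 0.506. The number of members at an unadjusted p under 0.05, which was 2, became 6 with array weights, 4 with the replicate number as a block, 1 after a further quantile normalization, 1 without the dimmest 25% of genes, 1 with the mean of all probe sets and 0 without the dimmest 50%, and lay between 1 and 4 when single rats were left out. The shares of all genes under the same settings are not given here, so these counts are not results about the members. The block added no call after adjustment. Deviations from the group mean had correlations across genes of 0.0035, -0.083 and 0.074 between same-numbered rats. Between rats of different numbers they ran from -0.13 to 0.14. With 3 rats per group this check cannot settle whether the numbers pair the rats. Of 861 member values under the alternatives 55 changed sign, in 29 genes, none of them Camk1d or Prkch. Some medians moved by more than the spread between rats. For CaM kinases the median was 0.10 with array weights, 0.044 after a further quantile normalization, 0.045 without the dimmest 25% and 0.010 without the dimmest 50%, and 0.043 to 0.10 without single rats. For TRPV channels it was -0.027 under both filters on dim genes, where only 2 genes remained, and 0.040 to 0.115 without single rats. For the pumps it was -0.011 with array weights. Without single rats it ranged from 0.017 to 0.067 for phospholipase C, from 0.035 to 0.097 for STIM and ORAI, from -0.033 to 0.072 for G proteins and their regulators, from -0.037 to 0.028 for PIP2 synthesis, from -0.013 to 0.044 for calcineurin and NFAT, and from -0.014 to 0.048 for other membrane channels and exchangers. The medians of protein kinase C (-0.018 to 0.033) and calmodulin (-0.065 to 0.095) took either sign without single rats. With array weights the G protein median was -0.031. Except where a filter removed genes, the cause was not tested.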

Other observations

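A probe set annotated to both Trpv1 and Trpv4, which the choice of genes left out, had log2 signals of 8.12, 8.21 and 8.22 in mated rats, against 7.90, 8.14 and 7.98 in unmated rats. Mated rat 1 lay below unmated rat 2, so the groups overlapped. Which of the 2 genes it reads cannot be told from these values.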
